A study of Mus musculus with 3 samples.

Results

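The regions described here are accessible regions of mouse whole brain that were listed for the library named sciATACv3 and for neither of the other libraries, sciATACv1 and sciATACv2 (v3, v1 and v2 below). They were found by merging the peaks of the 3 lists wherever they overlapped by at least 1 bp and keeping each merged region that held a v3 peak and no v1 or v2 peak. This gave 55953 v3-only regions of 825954 in all, or 6.77% (exact Clopper-Pearson 95% interval 6.72 to 6.83), and 10.9% of the 512023 v3 peaks. The members were thus chosen by which lists held a peak at a place, so that absence from the v1 and v2 lists is no finding. Each v3-only region was a single v3 peak. The v1 list held 622754 peaks and the v2 list 850991, and 322222 merged regions (39.0%) carried a peak of all 3 libraries. The v3 list had the fewest peaks but covered 490 Mb, against 454 Mb for v1 and 669 Mb for v2.

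The 3 libraries came from whole brain of C57BL6 mice. They were made by sciATAC, in which single nuclei are told apart by a first barcode from tagmentation and a second from PCR in nanowells. Nuclei were freed by mincing and douncing, tagmented in 96 wells, pooled, and placed in a chip of 5184 nanowells for PCR. Each version is 1 library, and all of them share strain, tissue and protocol text. Not given in the sources used here are the change from one version to the next, the number of nuclei, and the animals' number, sex and age. No read counts were used, so the depth of each list is unknown, and no difference below could be set against a spread between replicates. The intervals given cover counting error and nothing else. Fewer reads, fewer nuclei, other cell proportions and other accessibility cannot be told apart in such lists.

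ATAC-seq uses the transposase Tn5, which inserts sequencing adapters where DNA is not wrapped in nucleosomes or otherwise covered. Regions with many insertions are called as peaks, and in most tissues they fall at promoters, enhancers and insulators. Promoters rich in CG dinucleotides (CpG islands) are open in nearly all cell types, whereas distal elements and promoters poor in CG tend to be open in particular cell types, so that in a mixed tissue such as brain they may be open in few of the nuclei.

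The tissue label was checked on marker lists, as v3 peaks per 100 kb of gene window (the span extended by 5 kb both ways). The lists for excitatory neurons, oligodendrocytes, astrocytes and microglia held 39.5, 37.2, 34.6 and 34.3 v3 peaks per 100 kb. Those for inhibitory neurons, endothelial cells, cerebellar neurons, oligodendrocyte precursors, mural cells with fibroblasts, and ependymal cells held 24.2, 21.6, 19.4, 18.7, 17.1 and 16.6. No gene of these lists was without a v3 peak. Hepatocyte, erythroid and lymphocyte genes held 13.2, 11.9 and 16.0, and 2 of 10 hepatocyte genes and 1 of 10 lymphocyte genes had none. Skeletal muscle genes held 28.2, above 6 of the 10 brain lists, so the lists did not order by tissue.

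A few of the v3-only regions covered an annotated transcription start, and the sequences there show what these members looked like. The 250 bases before the start are printed for the 3 genes with the widest such regions among starts with no other peak within 1 kb, from RefSeq on build GRCm38.p6, 5′ to 3′ on the strand of the gene. Capitals mark CG dinucleotides. Pparg encodes the nuclear receptor PPARγ, a regulator of fat cell formation and lipid metabolism, and has a start under a v3-only region as well as starts under peaks of all 3 libraries, one of which is shown for contrast.
Pparg, v3-only start, chr6:115421816-115422065, plus strand: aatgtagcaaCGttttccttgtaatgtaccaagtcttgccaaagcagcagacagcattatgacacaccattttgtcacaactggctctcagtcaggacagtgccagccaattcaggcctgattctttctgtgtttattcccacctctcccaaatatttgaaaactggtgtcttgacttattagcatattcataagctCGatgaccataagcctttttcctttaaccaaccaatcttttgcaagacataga
Pparg, start under peaks of all 3 libraries, chr6:115360894-115361143, plus strand: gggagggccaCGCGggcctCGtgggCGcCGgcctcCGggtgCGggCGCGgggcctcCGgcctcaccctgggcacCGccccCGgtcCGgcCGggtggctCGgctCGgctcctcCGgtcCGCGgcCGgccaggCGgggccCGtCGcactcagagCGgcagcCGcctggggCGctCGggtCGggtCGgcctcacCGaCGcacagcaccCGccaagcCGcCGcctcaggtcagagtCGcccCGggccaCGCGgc
Glrp1, v3-only start, chr1:88510067-88510316, minus strand: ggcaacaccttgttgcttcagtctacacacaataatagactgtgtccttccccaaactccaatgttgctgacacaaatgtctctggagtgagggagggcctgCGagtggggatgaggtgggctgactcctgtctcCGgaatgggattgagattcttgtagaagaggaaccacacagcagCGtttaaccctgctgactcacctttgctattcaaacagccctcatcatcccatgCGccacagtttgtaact
Izumo1, v3-only start, chr7:45621561-45621810, plus strand: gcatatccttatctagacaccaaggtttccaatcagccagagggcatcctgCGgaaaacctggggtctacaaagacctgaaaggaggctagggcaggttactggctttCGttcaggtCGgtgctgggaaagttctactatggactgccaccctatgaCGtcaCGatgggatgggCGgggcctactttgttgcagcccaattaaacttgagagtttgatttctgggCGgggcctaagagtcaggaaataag
The v3-only stretch of Pparg held 2 CG dinucleotides and was 40.8% G+C, against 38 and 82.4% at the start shown under all 3 libraries. Pparg has a further start under peaks of all 3 libraries, at 115362349, whose 300-base window had 62.7% G+C and 13 CG dinucleotides, against 80.3% and 44 at the one shown and 40.3% and 2 at the v3-only start. The stretches of Glrp1, a gene for a glutamine-repeat protein, and Izumo1, which encodes the sperm protein for fusion with the egg, held 4 and 7 CG dinucleotides.

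Most v3-only regions were narrow. The median width was 500 bp, which is also the narrowest width in the lists, and 45854 of them (82.0%) had exactly this width. The 90th percentile was 761 bp, 1591 regions (2.84%) exceeded 1000 bp, and together they covered 31.5 Mb. Most regions of the other single libraries were also exactly 500 bp wide, 172151 of the 215827 v2-only and 37356 of the 40385 v1-only regions. Among v3 peaks of 500 bp, 21.2% were v3-only, against 6.74% of those wider than 500 and up to 1000 bp and 0.937% of those over 1000 bp. A narrow peak meets another by overlap less easily than a wide one, so these shares partly follow from the rule and are given as a description.

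The 5 widest v3-only regions were 2581 to 2878 bp, and each lay at a protein-coding gene. They were 2878 bp at chr2:178345117-178347994, at one end of Sycp2 (a component of the synaptonemal complex of meiosis), and 2820 bp at chr11:84480044-84482863 in Aatf (a nuclear factor of transcription and ribosome biogenesis). The next were 2710 bp at chrX:36881491-36884200 in Ube2a (a ubiquitin-conjugating enzyme) and 2636 bp at chr14:46965855-46968490 in Samd4 (an RNA-binding translational repressor). The fifth, of 2581 bp at chr7:99273012-99275592, lay in Map6, which encodes a protein that stabilises microtubules in neurons. The nearest v1 or v2 peak was 420 bp away for Sycp2 and 1337 bp away for Aatf. The window of Sycp2 held 14 v3-only regions of 36 (38.9%), with 18 v1, 24 v2 and 30 v3 peaks.

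The rule draws a line through a continuum of gaps and overlaps. The gap from a v3-only region to the nearest v1 or v2 peak had a median of 454 bp and quartiles of 157 and 1192 bp, and 52.7% of the regions lay within 500 bp of one. A v2 peak was the nearer for 69.1% and a v1 peak for 29.7%. The v2 list held 850991 peaks and the v1 list 622754, and how far list length bears on this was not tested. At the line itself, 5027 v3-only regions had a gap under 50 bp, and 3609 v3 peaks missed membership through an overlap of 1 to 50 bp. Those just inside and just outside were alike in width, 83.0% and 83.5% being 500 bp wide, and in position, 72.8% and 70.8% having their midpoint in a gene. At the other extreme 2535 v3-only regions (4.53%) stood more than 5000 bp from any v1 or v2 peak.

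The nearest union region was one with peaks of all 3 libraries for 43.3% of the v3-only regions, near the 40.7% over all union regions. It was a v2-only region for 20.1%, against 24.9% over all, and another v3-only region for 12.3%, against 6.76%. The other kinds found in a single library also lay next to their own kind more often than regions over all. For v2-only regions this was 33.2% against 24.9%, and for v1-only regions 14.0% against 4.58%. Along the chromosomes 78.6% of the v3-only regions stood singly, with a region of another kind on either side, and 16.5% stood in pairs.

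The longest unbroken runs were few and partly in named genes. A run of 9 v3-only regions at chr4:105525527-105614848 and one of 8 at chr5:29861583-29948559 lay outside protein-coding genes. Runs of 7 lay at chr14:21164966-21176350 in Adk, which encodes adenosine kinase, an enzyme that removes adenosine, at chr4:47368578-47375708 in Tgfbr1, a receptor kinase for TGF-β, and at chr4:114970136-114983665 in Cmpk1, a nucleotide kinase. A run of 6 at chr11:80006050-80015765 lay in Suz12, a core subunit of the Polycomb repressive complex that methylates histone H3.

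More of the v3-only regions lay within genes than of the regions found in either other library alone. Their midpoint fell in a gene span for 62.5% (interval 62.1 to 62.9), against 52.3% of the 215827 v2-only regions and 45.4% of the 40385 v1-only regions. Regions with peaks of v1 and v3 had 61.1% and those of v2 and v3 had 65.0%, on either side of the v3-only share. Those of v1 and v2 had 56.1%. Over whole lists the share of peaks in genes was 70.4% for v3, 67.7% for v1 and 64.6% for v2, so v3 was the highest as a list too. Genes took up 48.3% of the chromosome spans. The remaining v3 peaks were in genes for 71.4%, or 69.9% at a width of 500 bp, so the v3-only regions lay below the rest of their own list. The order was the same at either width. At exactly 500 bp the shares of the v3-only, v2-only and v1-only regions were 62.1%, 51.8% and 45.4%, and at greater widths 64.4%, 54.4% and 46.1%. By gene type, protein-coding spans held 55.1%, 43.8% and 36.6%, whereas lncRNA spans held 9.02%, 9.37% and 9.54%.

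The share within genes fell as the gap to the other lists grew. For v3-only regions it was 72.2% at a gap under 100 bp, 71.5% from 100 to under 500 bp, 63.7% from 500 to under 1000 bp, 47.8% from 1000 to under 5000 bp and 31.2% at 5000 bp or more. The same fall was seen for v2-only regions, from 65.4% to 26.4%, and v1-only regions, from 63.7% to 25.2%. In each of the 5 gap classes the v3-only share stood above the other 2, though at 1000 to under 5000 bp the v2-only share was as near as 45.6%. The gap is taken to the 2 lists that lack the region, and those differ in length between the 3 kinds of region.

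**Figure D1:**
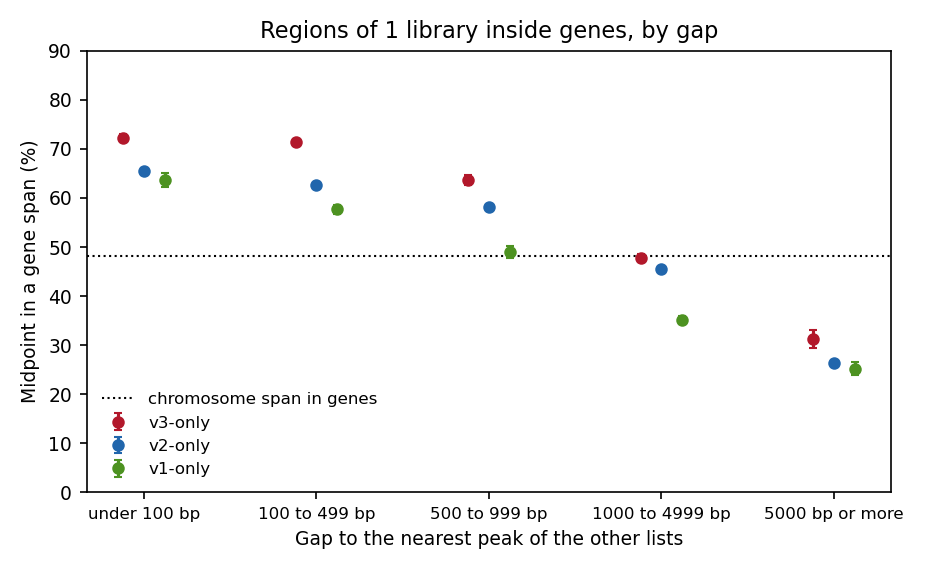
Share of regions of 1 library with their midpoint in a gene span (y, %) by the gap to the nearest peak of the other lists (x, 5 classes in bp); points are v3-only, v2-only and v1-only regions, bars are exact 95% intervals of counting error, and the dotted line is the 48.3% of chromosome span in genes. The v3-only points fall from 72.2% to 31.2% and lie above the others in each class.

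Within long genes the v3-only regions were denser near the start than near the end. In 7912 protein-coding genes of at least 20 kb with known strand, 23269 v3-only regions lay in the span, or 31.2 per Mb. The first 20% of the span held 4965 and the last 20% held 4075, a ratio of 1.22 (interval 1.17 to 1.27). The v2-only regions had the opposite order, with 11439 and 15149 and a ratio of 0.755 (0.737 to 0.774). The v1-only ratio was 1.02 (0.959 to 1.08), and that of regions shared by all 3 libraries 0.962 (0.947 to 0.978). Regions of a gene are not independent, so these intervals are too narrow to serve as a test.

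**Figure D2:**
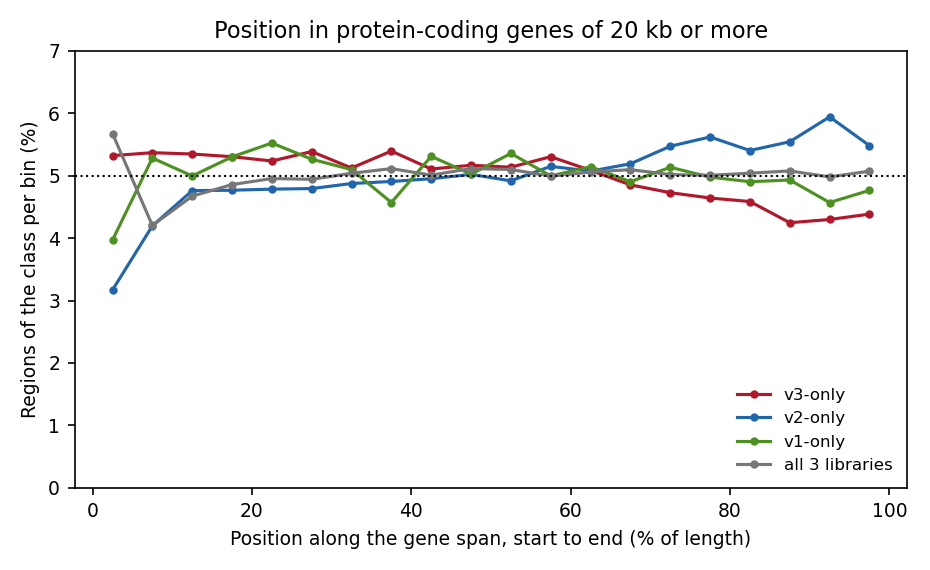
Position of regions along 7912 protein-coding genes of 20 kb or more (x, % of the span from start to end, 20 bins) as a share of all regions of that kind in the spans (y, %); the dotted line marks an even spread of 5%. The v3-only line falls from 5.32% in the first bin to 4.38% in the last, while the v2-only line begins at 3.17%.

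The v3-only regions were less dense before gene starts and after gene ends than within genes, where they numbered 31.2 per Mb. After the ends of these genes they numbered 25.2 per Mb at 1 to 5 kb and 24.4 per Mb at 5 to 10 kb. Upstream of the same genes the v3-only regions numbered 27.7 per Mb at 5 to 10 kb from the start, 21.3 per Mb at 1 to 5 kb and 13.3 per Mb in the last kb. The v2-only regions fell more steeply, from 104 to 51.3 and 29.2 per Mb, and the v1-only regions numbered 13.3, 12.8 and 7.33. Fully shared regions fell from 136 to 67.2 per Mb and rose to 229 in the last kb. A lower density in the last kb was thus seen in all 3 kinds of region found in a single library. At a distance of up to 1 kb from a protein-coding gene end lay 2.75% of the v3-only, 2.32% of the v2-only, 1.93% of the v1-only and 5.92% of the fully shared regions. For all 3 kinds found in a single library the share at gene ends was below that of shared regions.

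Density also varied with gene length. Genes under 5 kb held 11.6 v3-only regions per Mb of span and genes of 50 to 100 kb held 33.4, with 29.8 in genes over 500 kb. As a share of the union regions in the span, the v3-only regions rose from 3.58% in the shortest class to 7.63% at 50 to 100 kb, and were 6.61% in the longest.

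At annotated starts v3-only regions were rare. Windows from 250 bases before to 50 bases after the RefSeq start were available for 21014 starts of 17247 protein-coding genes. Starts on chromosome 18 were not analysed here, neither in these windows nor in the counts along genes. A v3-only region overlapped 125 of these windows (0.595%), in 120 genes, and 19 of the 125 also touched a v1 or v2 peak. Peaks of all 3 libraries overlapped 14674 windows (69.8%). The start itself lay under a v3-only region at 91 starts of 87 genes, and for 45 genes no other peak lay within 1 kb of such a start. Olfactory receptor genes were 4 of those 45 (8.89%), against 5.47% of all genes with a window.

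The 106 windows under a v3-only region and no v1 or v2 peak were poor in G+C. Their median was 44.3% with quartiles of 41.7 and 48.9%, near the 43.3% of the 4207 windows under no peak and the 46.7% of the 83 v1-only windows. The 707 v2-only windows had a median of 52.3%, and the windows under peaks of all 3 libraries had 61.0%. The median number of CG dinucleotides per window was 3 for v3-only, 4 for v2-only, 3 for v1-only, 20 for all 3 libraries and 2 for no peak. The Pparg starts printed above lie below and above these class medians.

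**Figure D3:**
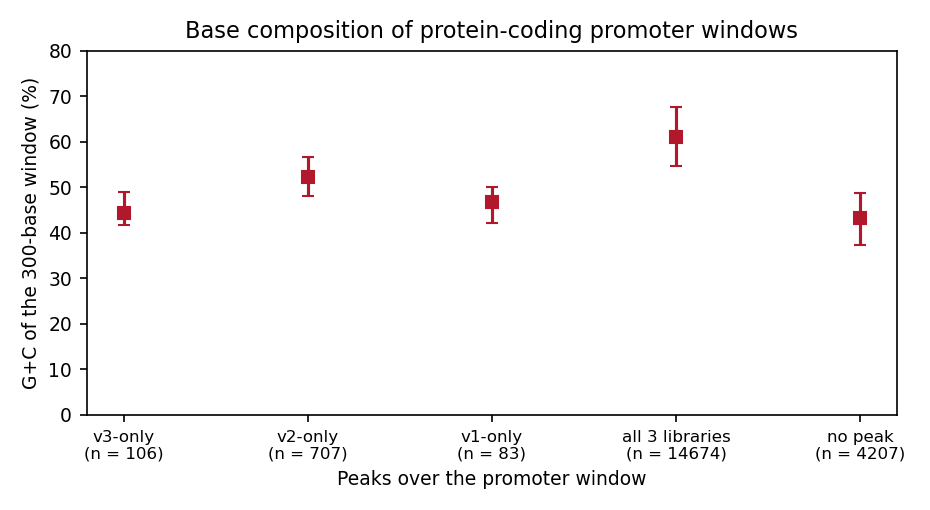
G+C content (y, %) of the 300-base windows around protein-coding starts, by the peaks over the window (x); squares are medians, bars run from the lower to the upper quartile, and the number of windows stands under each label. The v3-only median of 44.3% lies next to that of windows with no peak, 43.3%, and below the 61.0% of windows under all 3 libraries.

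For TATAAA and GGGCGG the v3-only windows lay near the windows under no peak, as did the v1-only windows. On either strand, TATAAA (the core of the TATA box) was present in 28 of the 106 v3-only windows, 26.4% (18.3 to 35.9), against 12.7% of all windows, 6.99% of those under all 3 libraries and 29.9% of those under no peak. It was present in 25.3% of v1-only and 18.1% of v2-only windows. GGGCGG, the GC box bound by Sp-family factors, was present in 10.4% (5.30 to 17.8) of v3-only windows, 46.6% of all, 4.82% of v1-only, 20.7% of v2-only and 5.56% of those under no peak. CCAAT was found in 34.0% against 38.5% of all. The other motifs searched were CACGTG (the E-box), in 7 of the 106 against 7.91% of all, and TGACTCA (the AP-1 site), in 8.49% against 4.69%, and their intervals of 2.70 to 13.1% and 3.96 to 15.5% include the share of all windows. Of the printed v3-only stretches, Glrp1 held TGACTCA and CCAAT, Izumo1 GGGCGG and CCAAT, and Pparg CCAAT. These matches are letters in a window and no evidence of binding.

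The 10 genes with the widest v3-only region at a start with no other peak within 1 kb included genes known from sperm, immunity and smell. Pparg led with a region of 1894 bp at chr6:115421604-115423497 over its start at 115422066, with the nearest v1 or v2 peak 3186 bp away. Its window held 25 v3-only regions of 68 (36.8%, interval 25.4 to 49.3), and 27 v1, 45 v2 and 55 v3 peaks. Thus v3 had the most peaks there, although its whole list has the fewest. The start lay 61187 bp into the span.

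The others had narrower regions. Glrp1 had one of 1474 bp, Izumo1 one of 1084 bp and Ccl9, a chemokine, one of 959 bp. The gene model Gm5414 had one of 898 bp, which was the only peak of any list in its window and lay 23701 bp from a v1 or v2 peak. The olfactory receptor genes Olfr816 and Olfr961 had 881 and 800 bp. Slamf6, a receptor of lymphocytes, had one of 759 bp, and Naip5, a sensor of bacterial flagellin, one of 754 bp. Paqr8, a membrane progestin receptor, had one of 742 bp at an inner start at 20917840, where G+C was 47.7%, while its outer start at 20890548, with 64.3%, was under peaks of all 3 libraries. Naip5 and the olfactory receptor genes have close copies, and how reads with several matches were treated is not stated in the sources used here.

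Some miRNA hairpins were covered. Of 1005 with RefSeq positions on this build, 13 (1.29%) lay under a v3-only region. Mir340 at chr11:50069702-50069799, and Mir350 at chr1:176772325-176772423 were among them. The v3-only regions covered 31.5 Mb in all, and no share expected from position alone was worked out. Neither an excess nor a lack at hairpins can be read from this count.

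The chromosomes differed in how many of their regions were v3-only. The share ran from 5.32% on chromosome 3 to 9.48% (9.18 to 9.79) on chromosome 7, with a median over the 19 autosomes of 6.59%. Chromosomes 9 and 17 followed chromosome 7 with 8.39% and 8.06%. Per Mb, chromosome 9 was the densest with 28.7 and chromosome 3 the sparsest autosome with 17.8. Chromosome 7, the highest by share, held 23.9 per Mb, below the 24.4 of chromosome 2. It had 35871 union regions over 142 Mb, against 50370 over 147 Mb on chromosome 6. The X chromosome held 11.1 per Mb, and 7.69% of its 24170 union regions were v3-only. On chromosome 3, of like length, union regions numbered 52624. On the X chromosome the v2-only share of 41.1% and v1-only share of 7.51% were above the autosomal ranges of 22.9 to 28.1% and 3.77 to 5.96%. The v3-only share of the X chromosome was within the autosomal range.

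**Figure D4:**
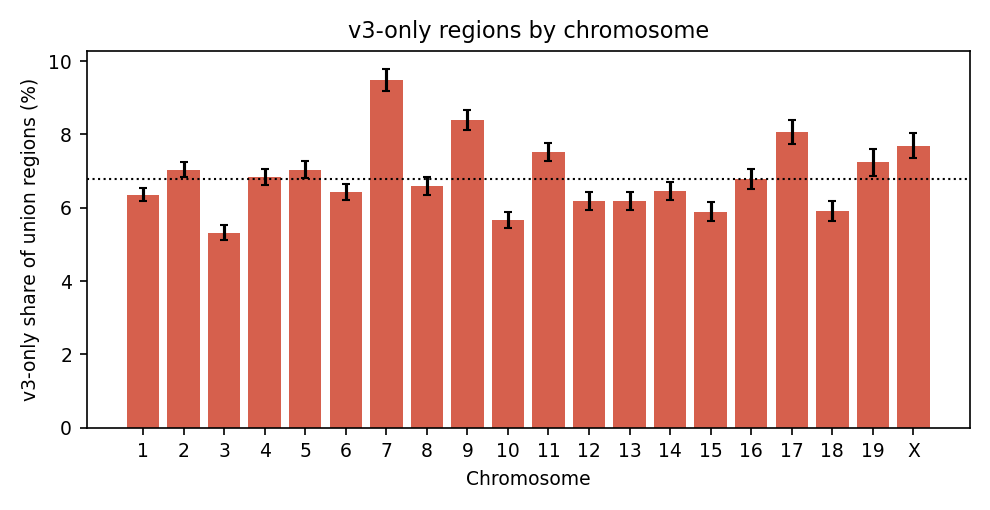
Share of union regions that were v3-only (y, %) on each chromosome (x); bars start at 0, whiskers are exact 95% intervals of counting error, and the dotted line is the genome-wide 6.77%. Chromosome 7 stands highest at 9.48% and chromosome 3 lowest at 5.32%.

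In bins of 1 Mb with at least 100 union regions, the v3-only share had a median of 6.36% and ran from 0 to 29.5%. Of 2421 such bins 8 exceeded 20%. The highest was chr7:136000001-137000000, with 39 of 132 regions, over Mgmt, which encodes the repair enzyme that removes alkyl groups from guanine. Next came chrX:87000001-88000000, inside Il1rapl1, with 91 of 401 (22.7%), and chr7:131000001-132000000 with 53 of 235 (22.6%). The v2-only regions numbered 14 in the Mgmt bin, 92 in the Il1rapl1 bin and 39 in chr7:131000001-132000000. The bin after the Mgmt bin on chromosome 7 also stood high, with 36 of 166 (21.7%). At the other end 2 bins held none, and one of them, chr14:90000001-91000000, had 242 regions and no protein-coding gene.

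Gene-poor bins held a smaller share. Where genes covered 0 to 20% of the bin 4.93% of regions were v3-only, at 20 to 40% it was 6.42%, and in the 3 classes above it was 7.01%, 7.13% and 7.12%. The v2-only share went the other way, from 35.0% in the gene-poorest bins to 22.0% in the richest, and the v1-only share from 8.62% to 3.55%.

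Of 25121 bins of 100 kb with any region, 19518 (77.7%) held a v3-only region, with a median of 2. The densest was chr9:104800001-104900000 in Cpne4, which encodes a calcium-dependent membrane-binding copine, with 21 v3-only, 14 v2-only and no v1-only regions of 58. The bin chr6:114500001-114600000, outside protein-coding genes, held 19 v3-only regions, no v2-only and no v1-only region of 46. Then came 3 bins with 18 each, over Kif28 and Ahctf1 on chromosome 1, Morc2a on chromosome 11 and Zmym4 on chromosome 4. In these 3 bins v2-only regions numbered 7, 4 and 7.

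By gene, 10757 of 21631 protein-coding genes (49.7%) held a v3-only region in their window. The 10 genes with the largest numbers had spans of over 1 Mb, from 1136 kb in Kcnip4 to 2390 kb in Dmd. Lsamp, which encodes a limbic cell adhesion protein of the IgLON family, held 170 v3-only regions of 1151 (14.8%, interval 12.8 to 17.0), with 932 v1, 1158 v2 and 1011 v3 peaks. Of those, 43 were wider than 500 bp, the widest being 1896 bp at chr16:41456487-41458382. Il1rapl1, an organiser of excitatory synapses linked to intellectual disability, held 120 of 558 (21.5%, 18.2 to 25.2), with 294, 455 and 350 peaks. Its window also held 132 v2-only regions, against 143 in that of Lsamp. Its v3-only regions lay at a median gap of 786 bp, against 304 bp in Lsamp.

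The 8 genes that follow by number had lower shares. Ptprd, a receptor phosphatase of synaptic adhesion, held 115 of 1259 (9.13%), and Dpp10, an auxiliary subunit of Kv4 potassium channels, 99 of 812 (12.2%). Robo2, a receptor for the guidance cue Slit, held 88 of 868 (10.1%), and Lingo2, a leucine-rich repeat membrane protein, 75 of 616 (12.2%). Cntnap2, which clusters potassium channels on axons, held 70 of 1063 (6.59%) and was the lowest of the 10 in share, with 258 v2-only regions. Kcnip4, a Kv4 channel-interacting protein, held 69 of 628 (11.0%), Dmd (dystrophin) 63 of 696 (9.05%) and Nkain2, a sodium pump-interacting protein, 63 of 554 (11.4%). Among the 10 the number did not follow length, since the shortest, Kcnip4, held more than the longest, Dmd. Over all protein-coding genes the pooled share was 6.93%.

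By share, the leading genes were shorter, with spans of 33.7 to 139 kb. Uimc1, which encodes the ubiquitin-binding DNA-repair protein RAP80, was highest among genes with at least 20 union regions, with 14 of 24 (58.3%, interval 36.6 to 77.9). Its window (chr13:55027880-55100363 with flanks) held 7 v1, 12 v2 and 22 v3 peaks. Acer3, an alkaline ceramidase, held 13 of 25 (52.0%), with 7, 12 and 21 peaks, and Taf15, an RNA-binding protein of the FET family, 11 of 22, with 8, 12 and 21. In each of these genes the v3 list had the most peaks, although the whole list has the fewest.

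The same held for several more of the 10. Morc2a, an ATPase of gene silencing, held 14 of 29 (48.3%), with 11, 20 and 27 peaks, and Suz12 11 of 23 (47.8%), with 7, 11 and 23. Ptpn20, a tyrosine phosphatase, held 9 of 20 (45.0%), with 5, 12 and 17 peaks, and Slc25a36, a mitochondrial nucleotide carrier, 10 of 23 (43.5%), with 8, 16 and 25. Tgfbr1 held 14 of 34 (41.2%), with 12, 23 and 31 peaks, Alms1, a centrosomal protein, 9 of 23 (39.1%), with 8, 13 and 15, and Ahctf1, a nucleoporin needed for pore assembly, 16 of 41 (39.0%), with 13, 31 and 40. In all 10 genes v3 had more peaks than v2, and v2 more than v1. The genes are the extremes among all genes, so high shares and this order are in part what the ranking selects.

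The median gap of the v3-only regions in these 10 genes ran from 455.5 bp in Ahctf1 and 945.5 bp in Morc2a to 2254 bp in Uimc1 and 3012 bp in Acer3, against 454 bp over all v3-only regions. Ranking by share favours windows with few v1 and v2 peaks, so these gaps are a description. In Uimc1 the widest was 1326 bp at chr13:55028298-55029623, and in Suz12 1616 bp at chr11:80006050-80007665, the first of the run of 6.

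**Figure D5:**
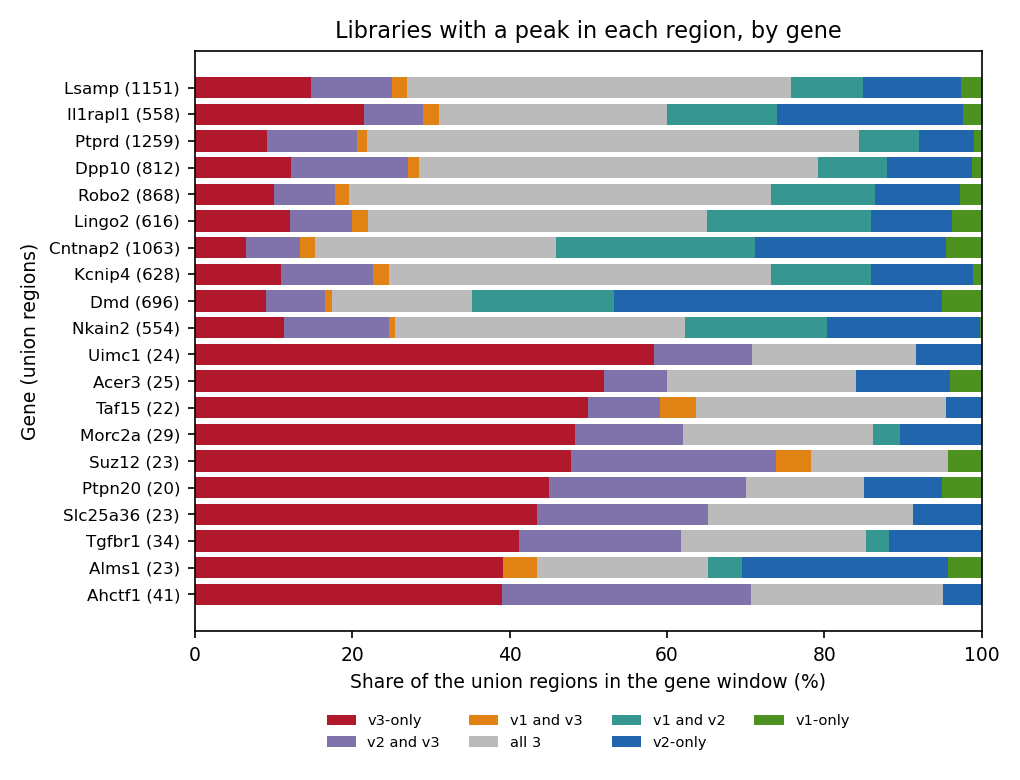
Union regions in the windows of the 10 genes with the most v3-only regions (upper) and the 10 with the highest v3-only share (lower), split by the libraries with a peak (x, % of the union regions, given in parentheses beside each gene). The v3-only part (dark red) is 6.59 to 21.5% in the upper genes and 39.0 to 58.3% in the lower, whose numbers of regions are small.

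Gene lists for brain cell types and for housekeeping complexes were compared by the share of their genes with a v3-only region and the v3-only share of their union regions. Over all protein-coding genes the median share per gene was 3.4%, and 9 of 20 lists had a median above it. The endothelial list had the highest pooled share. In it 11 of 12 genes held a v3-only region, against 49.7% of all genes, but its genes were long, with a median of 56.0 kb against 17.3 kb. In the windows of its genes 54 of the 361 regions were v3-only, 14.96% (11.4 to 19.1), with a median per gene of 12.5%. The v2-only share of the list, 25.2%, and its v1-only share, 4.16%, were also above those over all protein-coding genes, 21.2% and 3.37%. Flt1, a receptor for VEGF, held 14 of 45 (31.1%) with 19 v1, 35 v2 and 37 v3 peaks, and its v3-only regions lay at a median gap of 1712 bp. Erg, an endothelial transcription factor, held 14 of 81 (17.3%), with 45, 86 and 64 peaks.

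Other endothelial genes had fewer. Slco1a4, an organic anion transporter of the blood-brain barrier, held 5 of 13, Pecam1, a junctional adhesion protein, 4 of 29, and Ly6c1, which has close copies beside it, 4 of 6. Emcn, a sialomucin, held 3 of 45. Cdh5, Tek, Kdr, Tie1 and Abcb1a held 2 each, and Cldn5, the main claudin of the blood-brain barrier, held none of 4. The mural and fibroblast list, the other list of vessel cells, had v3-only regions in 5 of 12 genes, against 49.7% of all genes. They made up 3.50% of its regions (1.42 to 7.08), with a median per gene of 0.

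Neuronal and glial lists had pooled shares of 2.79 to 7.92%, on both sides of the 6.93% over all protein-coding genes. All 12 very long neuronal genes held v3-only regions, against 49.7% of all protein-coding genes. Their median length was 1628 kb against 17.3 kb, so a region in each gene says little. The v3-only regions were 804 of their 10466 regions (7.68%), with a median per gene of 6.61%, and 170 of the 804 were in Lsamp. Precursors of oligodendrocytes had 9 of 10 genes with one, against 49.7% of all protein-coding genes. The genes of this list were long, with a median of 65.4 kb against 17.3 kb. Their pooled share was 7.92% (5.90 to 10.4), or 48 of 606 regions, with a median per gene of 7.20%. Sox6, a transcription factor, held 27 of 137 (19.7%). These 27 were among the 48 of the list, so the pooled share rests largely on 1 gene. Excitatory and inhibitory neuron lists had 7 of 12 genes each and 5.90% and 5.70%. In the excitatory list, Rorb, a transcription factor of cortical layers, held 15 of 103 (14.6%) and Grin2b, an NMDA receptor subunit, 16 of 249 (6.43%). In the inhibitory list, Erbb4, the neuregulin receptor, held 30 of 493 (6.09%).

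Cerebellar neuron genes had the lowest pooled share of the 20 lists, 2.79% (1.90 to 3.93). Astrocyte genes had 4.11% in 6 of 12 genes, oligodendrocyte genes 5.17% in 8 of 12, and ependymal and choroid plexus genes 4.35% in 5 of 10. Microglial genes had 6.10% in 7 of 14: the integrin Itgam held 5 of 14, with 4, 9 and 13 peaks, and the purinergic receptor P2ry12 none of 39. Immediate early genes, which respond to neuronal activity and are short (median 3.62 kb), had 3.57% (0.435 to 12.3) in 2 of 10. Over all protein-coding genes 49.7% held a v3-only region.

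The 4 housekeeping lists had pooled shares of 7.69 to 9.23%. Their counts of genes with a v3-only region stand beside the 49.7% of all protein-coding genes. Proteasome subunits had 9.23% (6.58 to 12.5) in 16 of 31 genes, with Psmb2, a core subunit, at 6 of 20 and Psmd14, the deubiquitinase of the lid, at 7 of 53. Translation initiation factors had 8.59% (5.46 to 12.7) in 15 of 20, with Eif2s1 at 4 of 15. RNA polymerase II and Mediator subunits had 8.05% in 7 of 20 and spliceosome proteins 7.69% in 13 of 20, with Sf3b3 at 4 of 32. The intervals of all 4 lists include the 6.93% of all protein-coding genes. Genes of other tissues had 5.88% (hepatocyte), 3 of 60 regions (erythroid), 7.25% (lymphocyte) and 6.83% (skeletal muscle), with intervals that also include it.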

How the data were processed

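The authors deposited 1 peak list per library, holding peak coordinates alone, with no count, score or signal per peak. The build was mm10 and the tools included MACS2 and ArchR, per the submitters' processing notes. Not given in the sources used here are the aligner, versions, peak threshold, any fixed peak width and the treatment of reads with several matches. Depth per library is unknown.

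Peaks were merged where they overlapped by at least 1 bp, and each union region was classed by which lists had a peak there. Gene spans, promoter windows and miRNA hairpins came from RefSeq tables of GRCm38.p6, the same build. Strand and starts were present for 17274 of 21631 protein-coding genes. A gene window was the span extended by 5 kb both ways, and a region was assigned by its midpoint. Positions are 1-based. Shares carry exact Clopper-Pearson 95% intervals, and with 1 library per version no test was made. Scripts used Python 3.11.15, numpy 2.4.6, pandas 2.3.3 and scipy 1.17.1, and the merging, classing and counting were checked on simulated data.

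The members and lists were chosen with earlier results of these data known. Named genes were, by rule, the 10 with the most v3-only regions, the 10 with the highest share among genes with at least 20 union regions, the 2 leading genes of each list, the 5 widest regions, the 5 densest bins of 100 kb, and the 10 genes with the widest region over a start with no other peak within 1 kb. Ties went by name. A gene that the rule names is not reported here. Other endothelial and microglial genes, the splits by gap, gene length, position along genes and gene cover, the neighbours and runs, the bins of 1 Mb, the miRNA hairpins, the motifs and the printed sequences were chosen after values were seen. Of 271 list entries 1, the erythroid gene Ahsp, was not found in the gene table.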

Additional observations from a re-analysis of the deposited data

How the results depend on the processing

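Alternatives changed what counts as v3-only. Where v1 and v2 peaks could cover under 50% of the v3 peak, the number rose to 84935, the share in genes to 65.2%, the share of genes with a member to 59.2% and the ratio of the densest to the sparsest chromosome from 2.60 to 3.04, and the median gap fell to 150 bp. With no v1 or v2 peak within 500 bp, 26492 regions were left, 52.3% in genes, 2.11% within 1 kb of a coding gene end, in 30.6% of genes, with a median gap of 1262 bp, a chromosome ratio of 2.04 and 3 lists above the all-gene median. Regions wider than 500 bp numbered 10099, with 64.4%, 2.28%, 17.6%, 445 bp, a ratio of 3.08 and 2 lists. Coding spans alone held 55.1%. Within 500 bp of a gene end lay 1.35%. The share of genes was 39.8% by span alone and 69.2% with 20 kb flanks. Merging peaks that touch, tried after seeing the data, gave 55869 regions and moved no share by more than its interval. The all-gene list median was 0 in 3 of the 7 settings, where any value above 0 counts as above it. The endothelial median, 12.5% as reported, was 1.02% among regions wider than 500 bp. No paired analysis was possible because each version is 1 library. No replicate could be left out for the same reason, and without depths a caller's limit of detection cannot be separated from closed chromatin.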

Other observations

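The density of regions before gene starts changed abruptly at 5 kb for fully shared and v2-only regions. In the 7912 long protein-coding genes, fully shared regions numbered 952 at 5 to 6 kb upstream and 562 at 4 to 5 kb. The v2-only regions numbered 905 and 422 in the same kilobases. The v3-only regions numbered 192 and 159, a smaller drop than that from 251 to 192 a kilobase farther out. From 5 to 10 kb the density was 2.02 times that from 1 to 5 kb for fully shared regions, 2.03 times for v2-only, 1.30 times for v3-only and 1.04 times for v1-only regions. After gene ends the fully shared regions numbered 1555 at 4 to 5 kb and 1315 at 5 to 6 kb. How this arose was not tested.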
